A study of Homo sapiens with 12 samples.

Results

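The let-7 family strands were the 14 rows, of 952 microRNAs measured in either table, whose names begin with hsa-let-7 or hsa-miR-98, from both arms of the hairpin. Of these, 13 were tested in sgCYRANO against sgNT and 14 in ZSWIM8 KO against WT. Small RNA was sequenced from K562, an established human erythroleukaemia line, with 3 libraries in each of 4 groups, which the depositors describe as biological triplicates. The sgNT cells received a non-targeting guide RNA and the sgCYRANO cells a guide against the long non-coding RNA CYRANO. The WT and ZSWIM8-/- cells (ZSWIM8 KO) received no guide in the labels, which do not say whether the knockout libraries come from 1 clone. ZSWIM8 recognises substrates for a Cullin-RING ubiquitin ligase that target-directed microRNA decay requires, and CYRANO is the RNA that directs the decay of miR-7.

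The let-7 microRNAs are among the oldest known in animals. They repress growth-promoting genes such as RAS, MYC, HMGA2 and LIN28, and their levels generally rise as cells differentiate. The strand from the 5′ arm (5p) is the usual guide, held by an Argonaute protein, and the 3p strand is mostly degraded as the passenger. LIN28 proteins in turn bind let-7 precursors at the loop and block their maturation, and most let-7 precursors also need a single added uridine before Dicer cuts them well.

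Mature sequences for 13 of the 14 strands were found in RefSeq's table for GRCh38.p14. The 5p strands are shown because they share 1 seed and differ outside it, with bases 2 to 8 in capitals.
let-7g-5p: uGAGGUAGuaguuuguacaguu
let-7i-5p: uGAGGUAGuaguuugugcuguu
let-7f-5p: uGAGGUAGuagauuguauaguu
let-7e-5p: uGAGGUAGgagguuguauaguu
let-7d-5p: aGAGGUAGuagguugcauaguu
miR-98-5p: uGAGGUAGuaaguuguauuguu
let-7b-5p: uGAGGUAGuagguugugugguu
All 7 are 22 bases long and carry the seed GAGGUAG. Positions here count from 1 at the 5′ end. From let-7f-5p to let-7g-5p the substitutions are A12U and U18C, from let-7g-5p to let-7i-5p they are A17G and A19U, and from let-7f-5p to let-7b-5p they are A12G, A17G and A19G. From let-7f-5p to let-7a-5p there is 1 substitution, A12G, and from let-7e-5p to let-7a-5p 1, G9U. No source used here says how reads that match several such strands were assigned, so the division of reads within the family is uncertain. The strands let-7a-5p and let-7c-5p, and miR-4458 and miR-4500, which have the same seed, are not analysed here.

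The 3p strands are shown for the let-7a, let-7b and let-7d hairpins, which the results below compare with their 5p partners or neighbours.
let-7a-3p: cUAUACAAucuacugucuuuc
let-7b-3p: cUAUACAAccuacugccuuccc
let-7d-3p: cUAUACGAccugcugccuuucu
Of the 6 matched 3p strands, 4 share the seed UAUACAA (let-7a-3p, let-7b-3p, let-7f-1-3p and miR-98-3p), while let-7d-3p and let-7e-3p each have their own.

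The strands come from hairpins on 6 chromosomes (RefSeq positions in GRCh38.p14, host genes from GENCODE 29). The let-7g hairpin (chr3:52268278-52268361) lies in an intron of WDR82, a subunit of a histone methyltransferase complex, on the same strand. The let-7i hairpin (chr12:62603686-62603769) lies in an intron of the non-coding gene AC048341.1. On chromosome 9 the let-7a-1, let-7f-1 and let-7d hairpins lie between 94175957 and 94178920 in an intron of the non-coding gene AL158152.2. On chromosome X the let-7f-2 hairpin and miR-98 are 850 bases apart in an intron of HUWE1, which encodes another ubiquitin ligase. On chromosome 22 the let-7a-3 and let-7b hairpins are 863 bases apart within exons of the non-coding gene MIRLET7BHG, and let-7e lies between miR-99b and miR-125a in an intron of SPACA6 on chromosome 19. Thus let-7f-5p can come from chromosome 9 or X and let-7a-3p from chromosome 9 or 22.

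The deposited files give 1 row per microRNA and comparison, so no value of a single library is available for any strand. The levels below are group means in counts per 1000000 reads (CPM), recovered from the deposited mean log2 CPM and log2 fold change. The headers give no direction, and a positive log2 fold change is read as a higher level in sgCYRANO or ZSWIM8 KO. Read this way miR-7-5p had 2.52 ± 0.09 with the CYRANO guide and 2.35 ± 0.14 without ZSWIM8 in the authors' deposited table. Turned, every sign below would turn and the means of both groups would change places. The error after each ± is a standard error worked back from the p-value of that row. Group totals, read from the smallest CPM steps, were 5490000 reads for sgNT, 5290000 for sgCYRANO, 3810000 for WT and 7060000 for ZSWIM8 KO. The 12 libraries held 861000 to 2490000 such reads each. Since the group means summed to 1000000, these are reads counted for the tested microRNAs, not all reads of a library. K562's erythroid markers were present, with miR-486-5p at 11701 CPM in sgNT and 14449 CPM in WT and miR-451a at 775 and 574 CPM, whereas the liver and muscle markers miR-122-5p and miR-1-3p stayed between 0.748 and 2.08 CPM in all 4 groups.

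Among the 7 5p strands analysed, 4 held most of the reads. In WT cells let-7f-5p stood at 3402 CPM, let-7g-5p at 928, let-7e-5p at 816 and let-7i-5p at 501 CPM, and in sgNT cells they had 3152, 907, 757 and 411 CPM. These 4 made up 97.3% of the summed 5p level in WT and 97.9% in sgNT, with let-7f-5p alone at 58.7% and 59.0%. These shares leave out let-7a-5p and let-7c-5p, so they are not shares of the whole family. The tables were normalised separately, so levels set across them compare shares of reads only, and sequence-dependent ligation, which small-RNA kits are known for, is not corrected between strands.

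Below these came miR-98-5p, let-7d-5p and let-7b-5p, at 58.4, 47.0 and 48.3 CPM in WT and 39.3, 38.1 and 36.4 CPM in sgNT. With the fold direction turned, these control means would be 76.6, 68.5 and 29.7 CPM and 51.9, 42.7 and 35.2 CPM, so no order is read from them. All 3p strands were rarer than the 4 abundant 5p strands. The highest was let-7a-3p at 256 CPM in WT and 219 CPM in sgNT. It was followed by let-7e-3p at 18.8 and 13.8 CPM, let-7d-3p at 8.74 and 8.72 CPM and let-7f-2-3p at 5.55 and 8.44 CPM. The strands let-7b-3p, let-7f-1-3p and miR-98-3p rested on a handful of reads: let-7b-3p on 7 reads in sgNT, let-7f-1-3p on 2 in sgNT and 3 in WT, and miR-98-3p on 2 in WT.

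**Figure D1:**
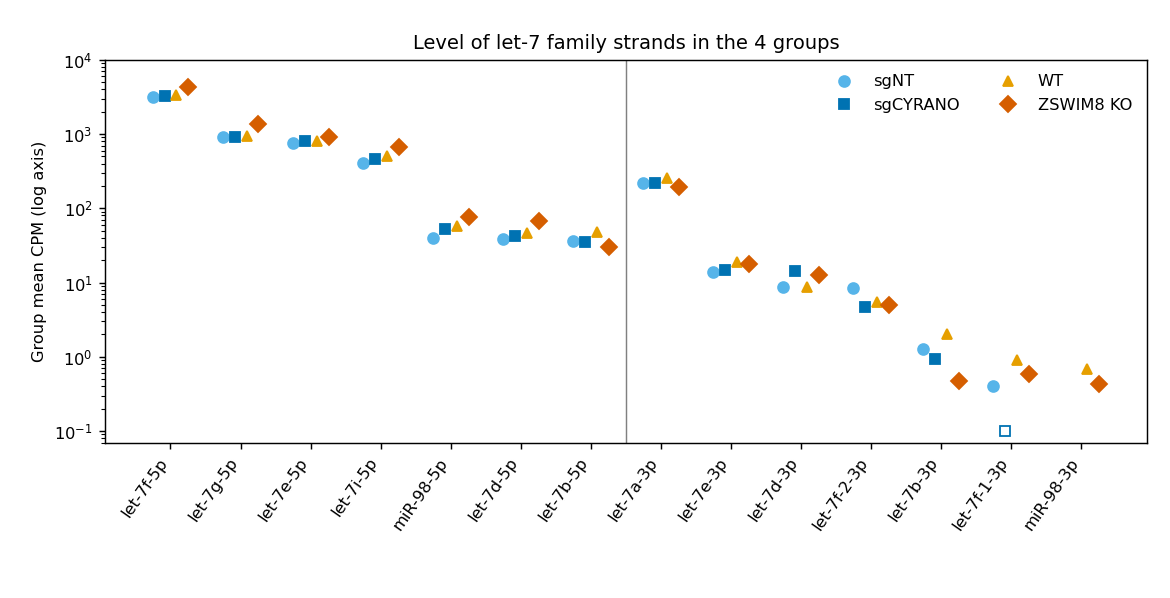
Group mean CPM (log axis) of the 14 let-7 family strands by group, 1 symbol per group mean with no error drawn; the open square marks a mean of 0 and miR-98-3p was tested in 1 comparison. The 4 abundant 5p strands lie at 411 CPM or more in every group, and let-7b-5p and let-7a-3p are the 2 strands above 20 CPM whose ZSWIM8 KO symbol lies under that of WT.

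Of the 14 strands, 2 rose in ZSWIM8 KO and 12 did not pass an adjusted p of 0.05. Over all 868 microRNAs 86 passed (9.91%), of which 41 were higher (4.72%) and 45 lower (5.18%). At an unadjusted p under 0.05 there were 6 of 14 strands, all at 10 CPM or more, where 172 of 868 microRNAs did so (19.8%) and 129 of the 304 at 10 CPM or more (42.4%). At 10 CPM or more 70 of 304 passed (23%), against 2 of the 10 family strands at that level, a share no higher than the background. Calls at 10 CPM or more were 38 higher (12.5%) and 32 lower (10.5%).

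The larger change was that of let-7g-5p, named hsa-let-7g-5p in the table, whose WT mean of 928 CPM became 1369 CPM without ZSWIM8. The authors' deposited table put this at 0.56 ± 0.13 on the log2 scale, 1.48-fold (edgeR quasi-likelihood test, adjusted p = 0.000199). The most abundant strand, hsa-let-7f-5p, went from 3402 to 4261 CPM, which the authors' deposited table put at 0.32 ± 0.10, a rise of 1.25-fold (adjusted p = 0.0204 by edgeR's quasi-likelihood test). Both strands rose in this table, and let-7f-5p added 858 CPM and let-7g-5p 442 CPM to the summed level. The erythroid markers miR-451a, at 574 and 956 CPM, and miR-144-3p, at 119 and 239 CPM, did not pass, with 0.74 ± 0.62 and 1.0 ± 0.60 in the authors' deposited table. Their errors were 4.43 and 2.72 times the running median. miR-486-5p had -0.11 ± 0.22 in the authors' deposited table, with an error from F 2.09 times that of its peers. The part of these markers in the let-7 values was not tested. With only microRNAs at 10 CPM or more tested 4 strands passed, let-7i-5p and let-7b-5p being added, and with F read on 4 degrees of freedom, those of the 6 libraries alone, 0 passed (adjusted p = 0.227 and 0.409).

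Neither let-7i-5p nor let-7e-5p, the other abundant strands, passed. For let-7i-5p, from 501 to 667 CPM, the authors' deposited table gave 0.41 ± 0.16 (adjusted p = 0.0793), with a 95% interval of 0.10 to 0.73. For let-7e-5p, from 816 to 912 CPM, it gave 0.16 ± 0.14 (adjusted p = 0.600 in the authors' deposited table). The errors of both, taken from F, were slightly above those of microRNAs of like abundance, at 1.12 and 1.14 times the running median.

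The rarer 5p strands did not pass either and did not lie on 1 side of 0. In the authors' deposited table let-7d-5p, at 47.0 and 68.5 CPM, had 0.54 ± 0.25 (adjusted p = 0.179), and miR-98-5p, at 58.4 and 76.6 CPM, had 0.39 ± 0.23 (adjusted p = 0.362). By contrast let-7b-5p, at 48.3 CPM with ZSWIM8 and 29.7 CPM without it, had -0.70 ± 0.28 in the authors' deposited table (adjusted p = 0.0995). It was the 1 negative value among the 7 strands with the let-7 seed.

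Changes within the family were set against each other by the interval of their difference, taking the errors of strands from the same libraries as independent. The change of let-7g-5p lay 1.26 above that of let-7b-5p on the log2 scale (95% interval 0.65 to 1.87), and the intervals for all 6 other 5p strands over let-7b-5p excluded 0, the nearest being let-7e-5p at 0.86 (0.24 to 1.48). Among the remaining pairs 1 interval excluded 0, that of let-7g-5p over let-7e-5p at 0.40 (0.03 to 0.77), so 7 of 21 pairs did so in all. In sgCYRANO 0 of 21 did. These pairs were looked at after the values were seen and are a description.

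The 7 strands of the let-7 seed summed to 5800.5 CPM in the WT group and 7384 CPM in the knockout, a ratio of 1.27, or 1.30 without let-7f-5p. The median log2 fold change of the 7 was 0.39. That of all 868 microRNAs was 0.08 and that of the 304 at 10 CPM or more 0.13, where 60.5% of values were positive. Relative to this median of 0.13, the rise of let-7g-5p was 0.43 (adjusted p = 0.00776) and let-7f-5p was no longer called at 0.20 (adjusted p = 0.285), while let-7b-5p at -0.83 (adjusted p = 0.0345) and let-7a-3p at -0.52 (adjusted p = 0.0225) were then called lower (normal test on the authors' deposited values). Over all microRNAs, centring turned 41 higher and 45 lower calls into 30 and 62.

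**Figure D2:**
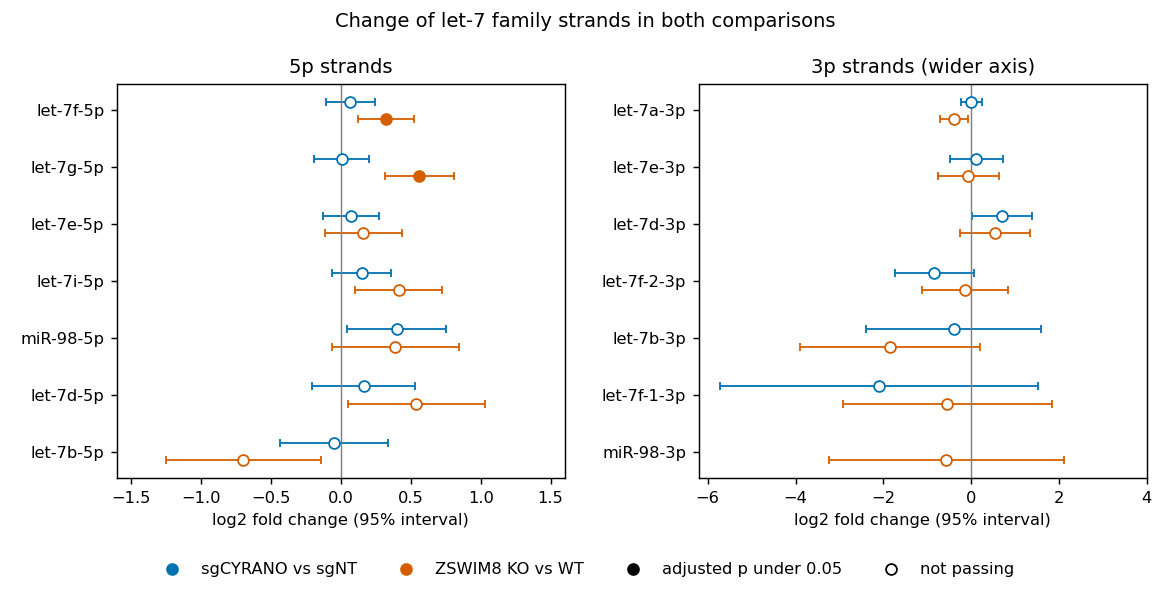
Log2 fold change with its 95% interval for each let-7 family strand in sgCYRANO against sgNT (blue) and ZSWIM8 KO against WT (orange); filled symbols passed an adjusted p of 0.05, and the 3p panel has a wider axis. The filled symbols are let-7f-5p (0.32) and let-7g-5p (0.56) in ZSWIM8 KO, and let-7b-5p (-0.70) is the 5p strand whose interval lies below 0.

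Of the 7 3p strands 0 passed in ZSWIM8 KO (edgeR), against 9.91% of all 868 microRNAs. Against 19.8% of all, 1 had an unadjusted p under 0.05. This was let-7a-3p, at 256 CPM in the WT group and 195 CPM in the knockout, with -0.39 ± 0.17 in the authors' deposited table (adjusted p = 0.134). Its value was negative while those of the abundant 5p strands were positive. Of the other 3p strands let-7d-3p had 0.54 ± 0.41, let-7e-3p -0.06 ± 0.36 and hsa-let-7f-2-3p, at 5.55 and 5.03 CPM, -0.14 ± 0.50 in the authors' deposited table. The summed 3p level was 292 CPM in the WT group and 233 CPM in the knockout, most of it let-7a-3p.

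The scarcest strands could not be resolved at this depth. For let-7b-3p 2.05 CPM in the WT group stood against 0.478 CPM in the knockout, which is 3 reads. The authors' deposited table gave -1.85 ± 1.04 (adjusted p = 0.323), on the same side of 0 as its 5p partner. let-7f-1-3p rested on 3 reads in WT and 4 in ZSWIM8 KO, and miR-98-3p on 2 and 3. A limit of 3 counts over a group corresponds to 0.788 CPM for WT and 0.425 CPM for the knockout and covers counting error only.

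The arms of each hairpin, which are made in equal number before 1 is loaded, were then compared. Of 6 let-7 family hairpins with both arms measured, 0 passed in ZSWIM8 KO (normal test of the difference, adjusted over 209 hairpins) and 0 had an unadjusted p under 0.05, where 11 of all 209 passed (5.26%) and 26 had an unadjusted p under 0.05. The most precise were let-7e, whose 5p strand changed by 0.22 ± 0.38 more than its 3p strand (95% interval -0.53 to 0.97), and let-7d, with a difference of 0.00 ± 0.48 (95% interval -0.94 to 0.94). For let-7f-5p the difference was 0.46 ± 0.51 against let-7f-2-3p (95% interval -0.54 to 1.46), and let-7b gave 1.15 ± 1.08 (95% interval -0.97 to 3.27). None of these intervals is narrow enough to set the arms equal, and the arms of the let-7g and let-7i hairpins were not compared here. The 5p strand was 43.5 times as abundant as the 3p strand for let-7e in WT, 5.38 times for let-7d and 613 times for let-7f-5p over let-7f-2-3p, although let-7f-5p also has its chromosome 9 source.

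In sgCYRANO 0 of the 13 measured strands passed (edgeR), where 1 of all 837 microRNAs did (0.119%), the same 1 being all that passed among 299 at 10 CPM or more (0.334%). At an unadjusted p under 0.05 there were 2 of 13, against 49 of 837 (5.85%). Among the 10 strands at 10 CPM or more it was also 2, against 38 of 299 (12.7%). The 4 abundant strands had narrow intervals around 0. In the authors' deposited table let-7g-5p had 0.01 ± 0.10, from 907 to 911 CPM, and let-7f-5p had 0.07 ± 0.09, from 3152 to 3304 CPM. The 95% interval of let-7g-5p ran from -0.19 to 0.20 and that of let-7f-5p from -0.11 to 0.24. For let-7e-5p (757 and 798 CPM) and let-7i-5p (411 and 455 CPM) the authors' deposited table gave 0.08 ± 0.10 and 0.15 ± 0.11.

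The 2 strands with an unadjusted p under 0.05 in sgCYRANO were rare ones. The authors' deposited table gave 0.40 ± 0.18 for miR-98-5p (39.3 to 51.9 CPM) and 0.70 ± 0.35 for let-7d-3p (8.72 to 14.2 CPM), both with an adjusted p of 0.816. let-7f-2-3p had 8.44 CPM in sgNT and 4.67 CPM in sgCYRANO, with -0.84 ± 0.46 in the authors' deposited table (adjusted p = 0.876), and let-7b-5p, at 36.4 and 35.2 CPM, had -0.05 ± 0.20. For let-7a-3p (219 and 220.4 CPM) and let-7d-5p (38.1 and 42.7 CPM) the authors' deposited table gave 0.01 ± 0.12 and 0.16 ± 0.19. let-7e-3p and let-7b-3p lay at 0.12 ± 0.31 and -0.39 ± 1.02 in the authors' deposited table. let-7f-1-3p had 2 reads in sgNT and a mean of 0 in sgCYRANO, both under the limit of 3 counts, so its fitted change depends on the prior count and is only drawn, not read. Of 5 hairpins with both arms, 0 passed and 0 had an unadjusted p under 0.05 (normal test, adjusted over 201 hairpins), where 1 of all 201 passed (0.498%) and 8 had an unadjusted p under 0.05. The 7 strands of the let-7 seed summed to 5340.4 CPM in sgNT and 5598 CPM in sgCYRANO, a ratio of 1.05.

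**Figure D3:**
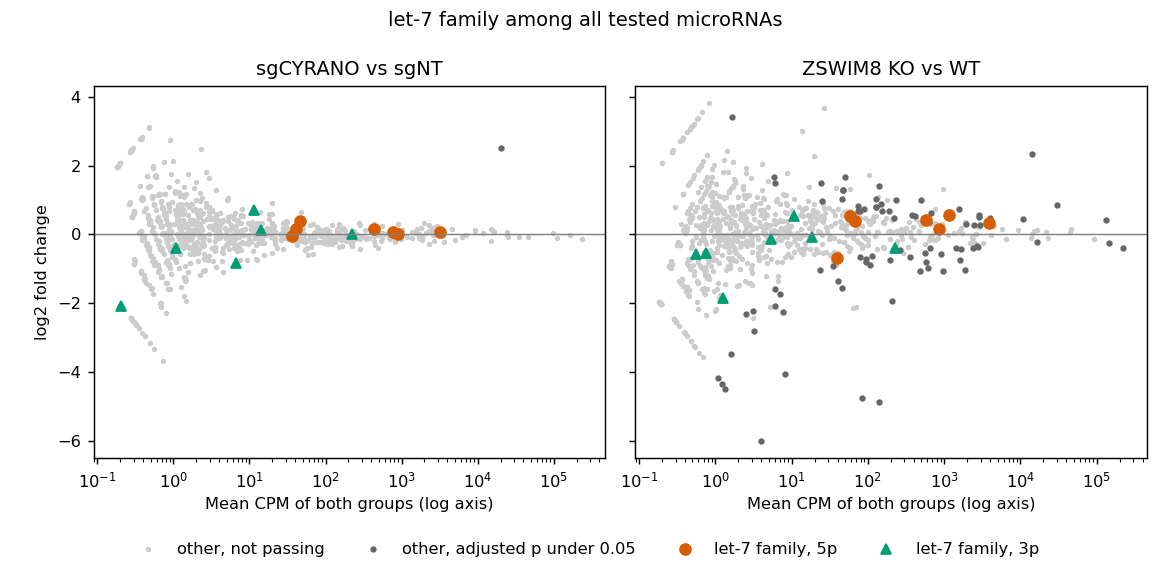
Log2 fold change against mean CPM (log axis) of every tested microRNA in both comparisons, with let-7 family 5p strands as orange circles and 3p strands as green triangles; dark grey points are other microRNAs past an adjusted p of 0.05. In sgCYRANO the 4 abundant 5p strands lie between 0.01 and 0.15, and in ZSWIM8 KO they lie between 0.16 and 0.56, among other microRNAs that moved as far or further.

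The difference between both comparisons, which share no libraries, was tested for each of 753 microRNAs measured in both. It passed for 1 of 13 family strands, let-7g-5p, whose change in ZSWIM8 KO was 0.55 ± 0.16 above that in sgCYRANO (normal test, 95% interval 0.24 to 0.87, adjusted p = 0.0130). In all, 50 of 753 microRNAs passed (6.64%), and 45 of 294 at 10 CPM or more in both tables (15.3%). After centring each comparison on its median 0 of the 13 passed, the lowest adjusted p of any family strand being 0.0873 (normal test). The strand let-7f-5p was called in 1 comparison, but its difference, 0.26 ± 0.14, did not pass (normal test, adjusted p = 0.348, 95% interval -0.01 to 0.52). Likewise let-7b-5p, at -0.65 ± 0.34, and let-7a-3p, at -0.40 ± 0.21, did not pass (normal test, adjusted p = 0.348 for each). For miR-98-5p both comparisons gave nearly the same value, with a difference of -0.01 ± 0.30.

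Set by locus, the strands on the chromosome 22 locus all had negative values in ZSWIM8 KO: let-7b-5p, let-7b-3p and let-7a-3p, the last shared with chromosome 9. On chromosome 9 let-7d-5p and let-7d-3p both had 0.54 in the authors' deposited table, and let-7f-5p, shared with chromosome X, had 0.32. let-7f-1-3p, which is also made there, had -0.54 ± 1.22 in the authors' deposited table, on 3 and 4 reads, and let-7b-3p on chromosome 22 likewise rested on 3 reads in the knockout. Strands of 1 locus thus lay on both sides of 0 on chromosome 9. None of the chromosome 22 values passed as deposited.

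Several let-7 hairpins lie beside members of the miR-99/100 and miR-125 families, which have other seeds. These neighbours, 8 measured strands in each table, gave 2 falls, 0 rises and 6 strands that did not pass in ZSWIM8 KO, where 5.18% of all microRNAs were called lower and 9.91% in either direction. At an unadjusted p under 0.05 there were 4 of 8, against 19.8% of all. At 10 CPM or more it was 3 of 6, against 129 of 304 (42.4%), and 1 of 6 was called lower, against 32 of 304 (10.5%). In sgCYRANO 0 of 8 passed, with 0 at an unadjusted p under 0.05 (edgeR). Their median log2 fold change was -0.94 in ZSWIM8 KO, against 0.08 for all microRNAs, and -0.28 over the 6 at 10 CPM or more, against 0.13. In sgCYRANO it was -0.08. Around let-7e on chromosome 19 the authors' deposited table gave 0.25 ± 0.10 for miR-99b-5p (4157 to 4960 CPM), 0.22 ± 0.14 for miR-99b-3p, -0.02 ± 0.12 for miR-125a-5p and -0.53 ± 0.28 for miR-125a-3p in ZSWIM8 KO. These 4 strands, and both let-7e strands between them, did not pass.

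The falls were those of strands made within 60 kb of let-7c or let-7a-2. miR-99a-5p, 658 bases from let-7c on chromosome 21, fell from 58.1 to 22.6 CPM, a log2 value of -1.36 ± 0.29 in the authors' deposited table. miR-125b-5p comes from chromosome 11, 46677 bases from let-7a-2, and from chromosome 21, 50341 bases from let-7c. This strand fell from 9.97 to 2.25 CPM, a log2 value of -2.09 ± 0.53 in the authors' deposited table. Their differences from sgCYRANO were -1.21 ± 0.34 and -2.23 ± 0.74 (normal test, adjusted p = 0.01 and 0.0424). miR-100-5p, 5635 bases from let-7a-2 on chromosome 11, had 104 and 23.5 CPM but did not pass, with -2.13 ± 1.07 in the authors' deposited table. Its error from F was 3.21 times that of microRNAs of like abundance. With the CYRANO guide these 3 strands had -0.14 ± 0.18, 0.14 ± 0.52 and 0.67 ± 1.19 in the authors' deposited table. The error of the last, from F, was 6.11 times that of its peers.

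**Figure D4:**
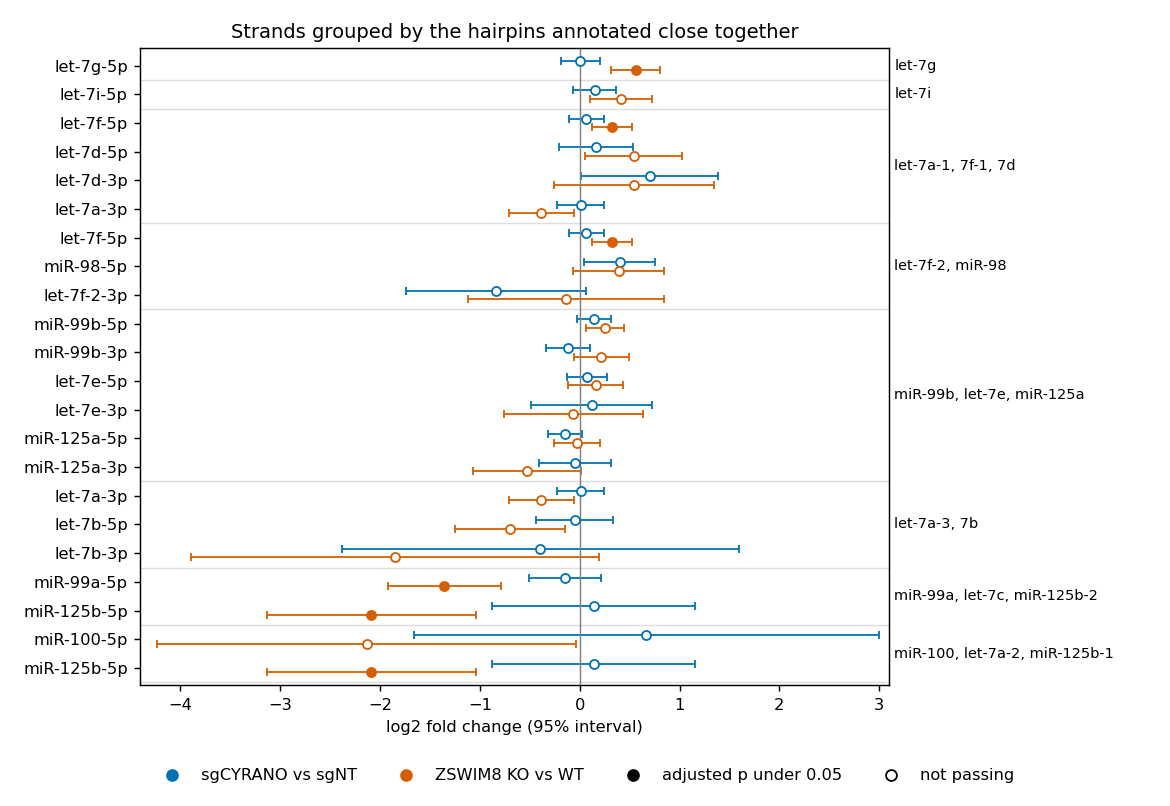
Log2 fold change with its 95% interval of let-7 family strands and their miR-99/100 and miR-125 neighbours, grouped by hairpins that lie within 60 kb of each other, in sgCYRANO against sgNT (blue) and ZSWIM8 KO against WT (orange); strands with more than 1 source are drawn at each, and let-7f-1-3p, miR-98-3p and miR-125b-1-3p, under 1 CPM in every group, are left out. In ZSWIM8 KO the let-7e group lies between -0.53 and 0.25, while miR-99a-5p (-1.36) and miR-125b-5p (-2.09) lie lowest among the filled symbols.

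The microRNAs whose pair of changes lay closest to the called strands, among 130 others at 100 CPM or more in both tables, were miR-328-3p and miR-744-5p for let-7g-5p (distances of 0.06 and 0.07 on the log2 scale) and miR-532-5p and miR-223-3p for let-7f-5p (0.09 for each). The authors' deposited table listed changes without ZSWIM8 of 0.53 ± 0.14 (miR-328-3p), 0.63 ± 0.13 (miR-744-5p), 0.30 ± 0.11 (miR-532-5p) and 0.30 ± 0.12 (miR-223-3p, a myeloid microRNA). The first 3 passed and miR-223-3p did not (edgeR, adjusted p = 0.0779 in the authors' deposited table). Likeness here rests on 2 comparisons only.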

How the data were processed

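Small-RNA libraries of K562 cells (12, in 4 groups of 3, grouped by their titles) were used through the authors' deposited tables of 2 comparisons. Per the submitters' processing notes the tools included edgeR, featureCounts, STAR, bcl2fastq and FastQC 0.11.2, and the build was hg19, their roles not being stated. Per the file headers, the deposited columns are a log2 fold change, a mean log2 CPM, an F statistic, used as a score, a p-value and an adjusted p-value, which Benjamini-Hochberg adjustment over all rows returns to within 1.09e-06.

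Group means were solved from both log2 columns (prior counts of 2 and 0.125) and summed to 1000000 in each group. The 3 library totals of a group were found as CPM steps whose whole multiples matched all 220, 227, 241 and 208 values under 1 CPM in sgNT, sgCYRANO, WT and ZSWIM8 KO to within 0.0015 CPM. Each standard error is the size of the log2 fold change divided by the standard normal value that has the deposited two-sided p. Ratios of an error to the running median used the root of F in place of that normal value. Differences between comparisons and arms used a normal reference with Benjamini-Hochberg adjustment over all features (scipy 1.17.1, Python 3.11.15). Procedures were tested on simulated data. For the difference tests these data were drawn with the same standard errors that the tests use, so they cannot check those errors.

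Every family strand is named, with neighbours at 10 CPM or more and those called, and the 2 closest microRNAs to each called strand. Members and lists were chosen with earlier results of these data known. Alternatives were 2 centrings, 2 filters on CPM, F read with 4 degrees of freedom, a stricter threshold and errors from F. The 4 degrees of freedom and the stricter threshold were applied only to calls within a comparison. Errors from F were applied only to differences between comparisons and arms. Replicates left out, replicate blocks and DESeq2 were not run, since values per library were not used here.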

Additional observations from a re-analysis of the deposited data

Results flagged for a closer look

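The strand let-7g-5p was picked out because its change differed between the comparisons by a test of the difference itself: 0.56 ± 0.13 in ZSWIM8 KO against 0.01 ± 0.10 in sgCYRANO in the authors' deposited tables, a difference of 0.55 on the log2 scale. In the normal test its adjusted p was 0.0130 over 753 microRNAs. It also passed with each filter on CPM and with errors from F, the lowest adjusted p being 0.00561. With either centring it did not pass, and the lowest adjusted p of any family strand was 0.0873 and 0.0737 (normal test).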

How the results depend on the processing

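The count of 2 family strands called in ZSWIM8 KO became 4 (3 higher, 1 lower) when only microRNAs at 10 CPM or more were tested, 1 at an adjusted p of 0.01 and 0 when the deposited F was read with 4 denominator degrees of freedom. The last setting left 3 of the 86 calls over all microRNAs, and 0.01 left 56. With the filter at 10 CPM 102 of all 304 microRNAs passed, 62 higher and 40 lower. Both centrings gave 3 strands, 1 higher and 2 lower. Over the 6 alternatives the adjusted p of let-7g-5p ran from 7.43e-05 to 0.227 and that of let-7f-5p from 0.00819 to 0.409. The number of strands whose change differed between the comparisons went from 1 to 0 with either centring. The lowest adjusted p of any family strand was then 0.0873 and 0.0737 (normal test). Counts in sgCYRANO and of hairpin arms stayed at 0 under the alternatives run, and no strand changed sign. For the arms centring cancels in the difference, so only the filters on CPM and the errors from F could have changed that count. The denominator degrees of freedom at which F returns the deposited p were near 3348 for 8 of 13 strands in sgCYRANO and near 164 for 6 of 14 in ZSWIM8 KO, far above the 4 that 6 libraries give, so the errors of these strands rest mostly on spread shared between microRNAs. For the others they ran from 1.88 to 26.4 and from 26.5 to 140.4. No paired analysis was possible because the deposited columns hold no values per library, and replicates could not be left out for the same reason.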
